A study of Mus musculus with 16 samples.

Results

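The genes described here are 9 listed as inhibitory immune receptors of mast cells: Cd300a, Cd300lf, Pirb, Lilrb4a, Milr1, Cd200r1, Cd33, Cd84 and Cd244. Whether each receptor inhibits these cells was not measured. The genes are listed by name. The rule for listing them uses no measured value, but the members were chosen with earlier results of these data known. Of the 39179 genes counted in each sample, 8 were members of this group, since Lilrb4a had no row under its GENCODE M21 identifier. All 8 passed the filter on low counts that left 13305 genes for testing. A row that covers the Lilrb4a locus is described apart from the members. RNA was sequenced from bone marrow derived mast cells (BMMCs), which are grown from mouse marrow in the growth factors stem cell factor and IL3.

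The marrow came from male C57BL/6 mice aged 8 to 10 weeks and was cultured for 4 weeks. The mice were wild-type (PEP+/+) or lacked the PEST-domain-enriched tyrosine phosphatase (PEP-/-), which is encoded by Ptpn22. How the null allele was made and how many mice stood behind each sample were not given in the sources used here. All 8 groups received IgE at 0.05 µg/ml for 3 h, as the labels state it (the methods of the study give another concentration), so there was no group without IgE. For each genotype there were 4 treatments: IgE alone, IgE with the antigen dinitrophenol (DNP, 200 ng/ml for 1 h), IgE with the glucocorticoid dexamethasone (DEX, 100 nM for 8 h), and IgE with both. Cells given IgE without DNP are called sensitized, and those given DNP activated. Each of the 8 conditions had 2 samples, 16 in all. The labels number 1 sample of each condition and give the other a letter, and these are called the numbered set and the lettered set below.

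IgE arms the receptor FcεRI on mast cells, and antigen then crosslinks it and sets off degranulation and cytokine production. Inhibitory receptors counter this signal: most carry tyrosine motifs in their cytoplasmic tails (immunoreceptor tyrosine-based inhibitory motifs or related switch motifs) that Src kinases such as LYN phosphorylate and that then recruit phosphatases such as SHP-1 (Ptpn6), SHP-2 (Ptpn11) and SHIP (Inpp5d). Many belong to paired families in which a close relative with a short tail signals through FcRγ (Fcer1g) or DAP12 (Tyrobp) and activates the cell. PEP itself is a phosphatase that acts on Src kinases.

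Of the members with a row of their own, Cd33 and Cd244 changed most with DNP and Milr1 most with DEX. Promoter sequences of these 3 receptors are therefore shown. Each is the run of 250 bases before the start site in RefSeq on GRCm38.p6, read 5′ to 3′ on the strand of the gene. Capitals mark a match to TGANTCA, the AP-1 motif, which reads the same on both strands, and such a match is present in Cd244 alone of the 3. They lie at chr7:43533172-43533421 (minus strand), chr1:171558943-171559192 (plus strand) and chr11:106750976-106751225 (plus strand).
Cd33: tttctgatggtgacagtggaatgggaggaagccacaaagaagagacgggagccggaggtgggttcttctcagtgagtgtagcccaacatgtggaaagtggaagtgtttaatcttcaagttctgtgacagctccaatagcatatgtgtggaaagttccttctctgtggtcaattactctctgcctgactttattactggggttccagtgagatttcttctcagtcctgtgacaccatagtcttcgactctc
Cd244: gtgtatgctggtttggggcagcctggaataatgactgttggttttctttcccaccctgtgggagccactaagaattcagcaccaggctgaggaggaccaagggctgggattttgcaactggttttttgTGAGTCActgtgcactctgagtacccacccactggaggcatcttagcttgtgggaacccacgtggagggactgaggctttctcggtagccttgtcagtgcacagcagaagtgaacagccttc
Milr1: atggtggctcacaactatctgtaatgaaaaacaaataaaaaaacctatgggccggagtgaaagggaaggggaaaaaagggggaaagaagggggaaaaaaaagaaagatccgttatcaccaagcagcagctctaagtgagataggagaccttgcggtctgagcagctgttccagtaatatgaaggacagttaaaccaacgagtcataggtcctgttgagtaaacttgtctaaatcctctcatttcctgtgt

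The RefSeq start of Cd33 used here lies inside the gene as GENCODE M21 draws it. RefSeq promoters of 300 bases, 250 before and 50 from the start site on, were found for 7 members, Cd200r1 and Lilrb4a being without one. TGANTCA was present in the windows of Cd244, with its first base at -122 from the start site, and of Cd84, at -229. Of all 32851 RefSeq promoters of this length, 7.81% held this motif. The glucocorticoid receptor half-site, searched as AGAACA and as TGTTCT for the other strand, was present in 19% of all promoters and, among the 7 members, in Cd300lf alone at -146. The PU.1 core GAGGAA or its reverse complement was in the windows of all 7 members and in 28.3% of all promoters, the NFAT core GGAAA or its reverse complement in all 7 and in 61.3%, and the GATA motif AGATAA or its reverse complement in 0 of 7 and in 11.2%. The GGAAA core can overlap other motifs. A match describes letters only, and binding was not measured.

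The files held 8612531 to 22143526 counts on genes per sample (median 12814043.5), and 29.1% to 49.6% of the reads in a sample were not counted on a gene. Ptpn22 stood at 11.3 to 174.8 CPM in the 8 PEP+/+ samples and at 0 to 3.03 CPM in the 8 PEP-/- samples, as the labels call for. All 10 mast cell markers passed the filter, at a summed 63190 to 103700 CPM. Of the 6 antigen targets listed as a check, all 6 rose with DNP, and of 6 glucocorticoid targets 5 rose with DEX in sensitized BMMCs. In activated BMMCs 5 of the glucocorticoid targets rose with DEX and 1, Sgk1, fell. Markers of other cells were low: the summed level of 7 macrophage and monocyte markers was 12.9 to 75.1 CPM after IgE, 12.8 to 59.8 CPM after IgE DNP, 4.96 to 18.9 CPM after IgE DEX and 5.31 to 18.1 CPM after IgE DNP DEX, that of 6 neutrophil markers 1.81 to 4.10 CPM, that of 5 dendritic cell markers 14.8 to 42.9 CPM, that of 2 basophil markers 19.8 to 122 CPM, that of 3 eosinophil markers 4.30 to 22.1 CPM, that of 3 B cell markers 0 to 0.605 CPM and that of 3 T and NK cell markers 0.546 to 2.81 CPM. Ms4a1, Cd3e, Cd3g, Camp and Epx were at 0 in every sample. The macrophage and monocyte total and the eosinophil total had lower ranges after DEX. Ccr2 was the highest macrophage and monocyte marker, at 0.937 to 68.4 CPM. None of the 4 such markers tested changed with DEX at an adjusted p under 0.05. Of the eosinophil markers only Ccr3 passed the filter, at 4.17 to 22.1 CPM, and it fell with DEX in sensitized and activated BMMCs. The part of these cells in the results below was not tested. In these bulk samples fewer cells of a type and less RNA per cell cannot be told apart.

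Levels are given as CPM, the counts of a gene scaled to a common library size after TMM normalisation, and changes as log2 fold changes with a standard error (SE) from edgeR's quasi-likelihood test, called at a Benjamini-Hochberg adjusted p under 0.05 over all genes tested. Per kilobase of exon, Cd300a and Pirb were the most highly expressed members, at 74.7 and 59.7 CPM per kb over all 16 samples, above 95.4% and 94.2% of 13166 tested genes with a known length. Cd200r1 (31.2 CPM per kb), Cd84 (29.6), Cd244 (22.3) and Cd300lf (22.0) came next, and Cd33 (12.2) and Milr1 (10.3) were lowest, still above 73.2% and 69.6% of the genes. No member fell under 123 counts in any sample.

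**Figure D1:**
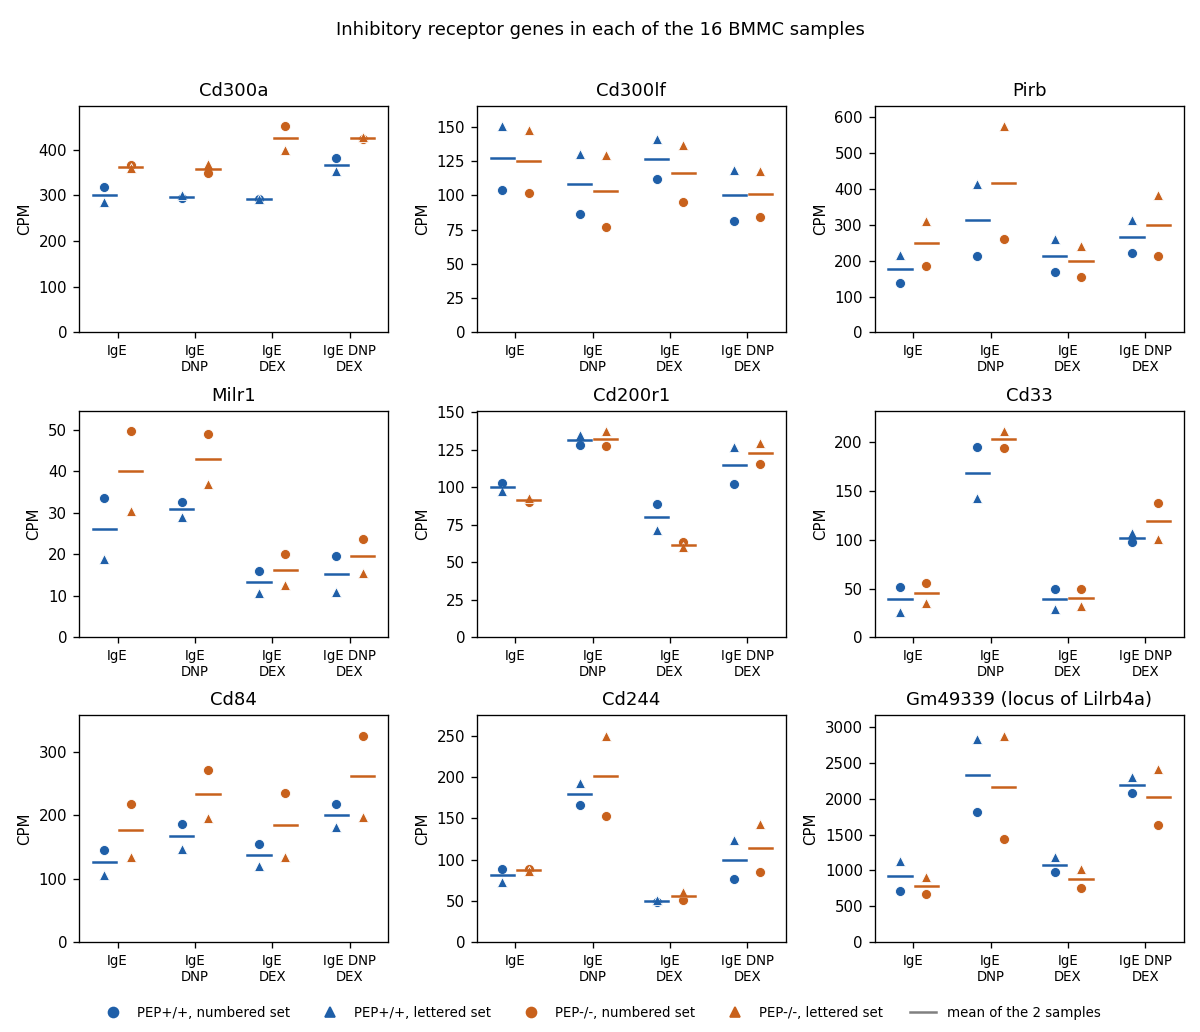
CPM of the 8 receptor genes and of the row that covers the Lilrb4a locus in each of the 16 samples, by treatment (x axis). Colours mark the genotypes, circles the numbered and triangles the lettered set, and lines the mean of the 2 samples. Cd33 stood at 25.8 to 55.7 CPM after IgE and at 142.8 to 211 CPM after IgE DNP, and Milr1 at 18.9 to 49.6 CPM after IgE and 10.8 to 20.1 CPM after IgE DEX.

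Antigen raised 3 of the 8 receptor genes, Cd33, Cd244 and Cd200r1, and lowered none. The row that covers the Lilrb4a locus, not counted among the 8, rose as well. Across all tested genes 16.7% were called for DNP. The members' median log2 fold change was 0.43 and that of all genes -0.00. When the sample set was added to the model as a term, 6 members were called, 5 up and 1 down, with 37.9% of all genes called. In the presence of DEX, DNP raised the same 3 genes (12.6% of all genes called; median log2 fold change 0.49 for the members and -0.03 for all genes), and with the set term again 6 were called, 5 up and 1 down (37.6% of all genes).

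DEX lowered Milr1 and Cd200r1 in sensitized BMMCs (9.37% of all genes called) and Milr1 and Cd244 in activated BMMCs (10.7% of all genes called), and raised no member in either. The members' medians were -0.06 and -0.26, beside 0.00 and -0.01 for all genes. With the set term 3 members fell in sensitized cells (26.7% of all genes called), and in activated cells 4 fell and 1 rose (33.3% of all genes called). The comparisons share samples: IgE DNP and IgE DEX are each set against the same IgE samples, and IgE DNP DEX against both.

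**Figure D2:**
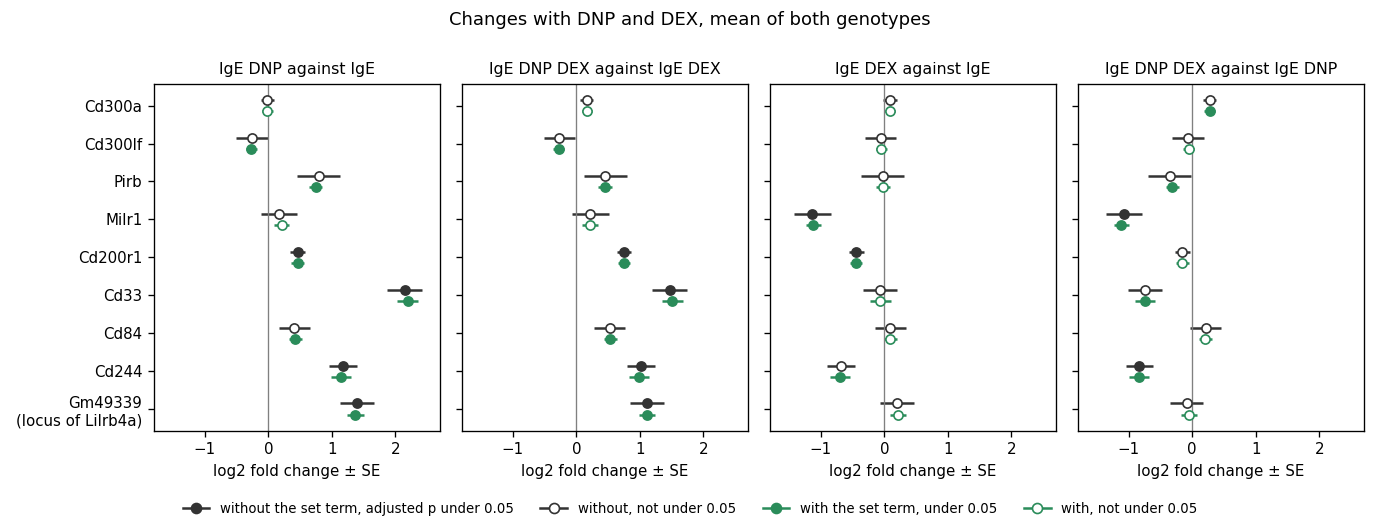
Log2 fold change ± SE (x axis) of each gene in the 4 treatment comparisons, each over 4 against 4 samples. Black points come from the model without and green points from the model with the sample set as a term, and filled points passed an adjusted p of 0.05. Cd33 changed most with DNP, by 2.14 without and 2.19 with the set term, and the bars of Pirb and Cd300lf are shorter with the set term.

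Cd33, a sialic acid-binding lectin of the Siglec family (chr7:43524216-43544428, minus strand, GRCm38), rose most of the members with antigen. With IgE alone it stood at 51.9 and 25.8 CPM in the PEP+/+ samples and 55.7 and 34.8 CPM in the PEP-/- samples (numbered set first, here and below). Antigen brought it to 195 and 143 CPM in the PEP+/+ samples and 194 and 211 CPM in the PEP-/- samples. Every activated sample was above every sensitized one. The rise was 2.14 on the log2 scale (SE 0.28, adjusted p = 0.000303), 2.12 (SE 0.39) in PEP+/+ and 2.17 (SE 0.39) in PEP-/- cells.

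DEX alone left Cd33 at 49.3 and 29.2 CPM in the PEP+/+ samples and 49.2 and 31.9 CPM in the PEP-/- samples, which overlapped the IgE samples (log2 fold change -0.07, SE 0.27, adjusted p = 0.954). With DEX and antigen it reached 97.2 and 107 CPM in the PEP+/+ samples and 138 and 101 CPM in the PEP-/- samples. These 4 values lay above those after IgE DEX and below those after IgE DNP. The rise with DNP under DEX was 1.47 (SE 0.27, adjusted p = 0.00472). The difference between activated cells with and without DEX was -0.74 (SE 0.27, adjusted p = 0.106) and passed with the set term (adjusted p = 0.00252) and without the filter on low counts (adjusted p = 0.00638). The DNP change under DEX minus that without DEX was -0.67 (SE 0.38) and was not called. Cd33 was 0.45 lower in the lettered than in the numbered set (log2, SE 0.11, adjusted p = 0.00347).

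Cd244 (chr1:171559193-171609746, plus strand), whose AP-1 match is shown above, encodes 2B4, a SLAM family receptor for CD48. In sensitized BMMCs it stood at 88.9 and 73.3 CPM in the PEP+/+ samples and 89.0 and 86.5 CPM in the PEP-/- samples. With antigen it stood at 166 and 193 CPM in the PEP+/+ samples and 152 and 249.8 CPM in the PEP-/- samples. The groups did not overlap, and the rise was 1.17 (SE 0.22, adjusted p = 0.00351). It was 1.15 (SE 0.31) in PEP+/+ and 1.20 (SE 0.31) in PEP-/- cells.

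With DEX alone, Cd244 stood at 48.5 and 50.4 CPM in the PEP+/+ samples and 51.2 and 61.3 CPM in the PEP-/- samples, below every sample given IgE alone. This difference of -0.68 (SE 0.22, adjusted p = 0.0845) passed with the set term (-0.69, SE 0.16, adjusted p = 0.00411), by DESeq2 (adjusted p = 0.0339), without the filter on low counts (adjusted p = 0.0176) and when the compared conditions were fitted alone (adjusted p = 0.0290). With DEX and antigen it stood at 76.2 and 124 CPM in the PEP+/+ samples and 85.2 and 143 CPM in the PEP-/- samples, below every sample after IgE DNP and above every sample after IgE DEX. The fall with DEX in activated cells was called (-0.83, SE 0.22, adjusted p = 0.0314), and so was the rise with DNP under DEX (1.02, SE 0.22, adjusted p = 0.0109). The call of the fall was lost when any 1 of 5 samples was left out, which were both PEP+/+ IgE DNP samples, the lettered PEP-/- IgE DNP sample and both numbered IgE DNP DEX samples (-0.87 to -0.61, adjusted p 0.0666 to 0.144). The order of its 8 condition means ran from PEP-/- IgE DNP down to PEP+/+ IgE DEX, 4.07 times lower, and in 3 of the 7 steps both samples of 1 condition lay above both of the next. Ly9 overlaps part of Cd244 and was low, at 1.09 to 6.71 CPM. Cd48, the gene of the ligand, stood at 23.0 to 57.8 CPM and was not called in any comparison.

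Cd84 (chr1:171839697-171890718, plus strand), a SLAM family receptor that binds itself on other cells, was measured at 145 and 106 CPM in the PEP+/+ samples and 218 and 134 CPM in the PEP-/- samples after IgE. In activated BMMCs it stood at 186 and 148 CPM in the PEP+/+ samples and 272 and 196 CPM in the PEP-/- samples. The ranges overlapped, while within each set and genotype the activated sample was higher, by 0.32 to 0.54 in 4 of 4 pairs. The change with DNP was 0.41 (SE 0.25, adjusted p = 0.343) without and 0.42 (SE 0.10, adjusted p = 0.00494) with the set term. Under DEX the change with DNP was 0.52 (SE 0.25, adjusted p = 0.208) without and 0.53 (SE 0.10, adjusted p = 0.00117) with it. Cd84 was 0.51 lower in the lettered set (SE 0.07, adjusted p = 3.79e-05). DEX moved it by 0.10 (SE 0.25) in sensitized and 0.21 (SE 0.25) in activated cells, and neither was called in either model.

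Cd200r1 (chr16:44765736-44794978, plus strand) encodes the receptor for CD200. In sensitized cells it stood at 103 and 97.8 CPM in the PEP+/+ samples and 90.0 and 92.8 CPM in the PEP-/- samples. Once activated it stood at 128 and 134 CPM in the PEP+/+ samples and 127 and 137 CPM in the PEP-/- samples. The groups did not overlap, and the rise was 0.46 (SE 0.12, adjusted p = 0.0196). Its call was lost when any 1 of 6 samples was left out, namely any of the 4 IgE samples or either lettered IgE DNP sample (0.43 to 0.48, adjusted p 0.0518 to 0.0821).

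After IgE DEX, Cd200r1 stood at 88.9 and 71.5 CPM in the PEP+/+ samples and 63.5 and 60.1 CPM in the PEP-/- samples, below all IgE samples. The fall was -0.44 (SE 0.12, adjusted p = 0.0358). This call was lost without any 1 of 9 samples, all 4 IgE samples, 3 of the 4 IgE DEX samples (all but the numbered PEP+/+ one) and both PEP-/- IgE DNP samples, with adjusted p from 0.0501 to 0.160 and a change of -0.46 to -0.37. Both agents together gave 102 and 127 CPM in the PEP+/+ samples and 116 and 129 CPM in the PEP-/- samples, above every IgE DEX sample. DNP under DEX gave a rise of 0.75 (SE 0.12, adjusted p = 0.0017), with each of the 16 samples left out in turn still called. It was 0.51 (SE 0.17) in PEP+/+ and 0.99 (SE 0.17) in PEP-/- cells, a difference that was not tested by itself. In activated cells DEX changed Cd200r1 by -0.15 (SE 0.12, adjusted p = 0.496), and the DNP by DEX interaction of 0.29 (SE 0.17) was not called. Cd200, the gene of the ligand, had 1 count in 1 sample and 0 in the other 15.

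Milr1 (chr11:106751226-106768794, plus strand) encodes Allergin-1, a mast cell receptor with inhibitory tyrosine motifs. IgE alone gave 33.4 and 18.9 CPM in the PEP+/+ samples and 49.6 and 30.5 CPM in the PEP-/- samples. After IgE DEX it stood at 15.9 and 10.8 CPM in the PEP+/+ samples and 20.1 and 12.5 CPM in the PEP-/- samples. The lettered PEP+/+ IgE sample lay below the numbered PEP-/- IgE DEX sample, so the ranges overlapped, while the 4 same-set pairs fell by 0.80 to 1.30. The fall was -1.13 (SE 0.29, adjusted p = 0.0292) in the 8 samples together, -0.98 (SE 0.40) in PEP+/+ and -1.29 (SE 0.41) in PEP-/- cells.

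In activated cells Milr1 stood at 32.5 and 29.0 CPM in the PEP+/+ samples and 49.0 and 36.9 CPM in the PEP-/- samples. With DEX and antigen it stood at 19.5 and 10.9 CPM in the PEP+/+ samples and 23.7 and 15.5 CPM in the PEP-/- samples. All 4 DEX-treated samples were below all 4 others, and the fall was -1.08 (SE 0.29, adjusted p = 0.0345). Both falls lost their call when single samples were left out. In sensitized cells these were the numbered IgE samples and the lettered IgE DEX samples of either genotype (with changes down to -0.89 in size, adjusted p 0.117 to 0.127). In activated cells they were 7 of the 8 samples compared, all but the numbered PEP+/+ IgE DNP DEX sample (-1.23 to -0.88, adjusted p 0.0521 to 0.128). With the set term the adjusted p were 5.08e-06 and 6.25e-06. DNP changed Milr1 by 0.17 (SE 0.28, adjusted p = 0.796), and by 0.22 (SE 0.29, adjusted p = 0.695) under DEX. Polg2 overlaps Milr1 and stood at 3.20 to 8.74 CPM.

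Pirb (chr7:3711409-3720391, minus strand) encodes the inhibitory paired immunoglobulin-like receptor, which binds MHC class I. It shares long near-identical stretches with the activating Pira genes, so its counts are uncertain. Given IgE alone, it stood at 138 and 215 CPM in the PEP+/+ samples and 185 and 312 CPM in the PEP-/- samples. Antigen brought it to 213 and 413 CPM in the PEP+/+ samples and 262 and 575 CPM in the PEP-/- samples. The lettered sample was the higher one in each condition, by 0.77 on average (log2, SE 0.08, adjusted p = 1.31e-06), and the groups overlapped. The change with DNP was 0.79 (SE 0.34, adjusted p = 0.163), and with the set term 0.74 (SE 0.11, adjusted p = 6.57e-05). It was also called without the filter on low counts (adjusted p = 0.00227). The activated sample was higher by 0.50 to 0.94 in 4 of 4 pairs.

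After IgE DEX, Pirb stood at 167 and 260.0 CPM in the PEP+/+ samples and 155 and 242 CPM in the PEP-/- samples. With both agents it stood at 220.3 and 313 CPM in the PEP+/+ samples and 214 and 385 CPM in the PEP-/- samples. DNP under DEX gave 0.46 (SE 0.34, adjusted p = 0.456), or 0.45 (SE 0.11, adjusted p = 0.00411) with the set term. DEX in activated cells gave -0.36 (SE 0.34, adjusted p = 0.616), or -0.31 (SE 0.11, adjusted p = 0.0349) with the set term, and 3 of 4 pairs were lower. DEX in sensitized cells gave -0.02 (SE 0.34, adjusted p = 0.988), and the sign turned in some of the reanalyses with a sample left out. This change was 0.28 (SE 0.48) in PEP+/+ and -0.32 (SE 0.48) in PEP-/- cells. The same-set pairs gave 0.273 and 0.275 in PEP+/+ and -0.256 and -0.365 in PEP-/- cells. The difference between the genotypes was not tested by itself for sensitized cells.

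Lilrb4a encodes gp49B, which carries inhibitory tyrosine motifs, and is listed in GENCODE M21 at chr10:51490956-51496611. No count was found under its identifier. A row named Gm49339 in that annotation (chr10:51480612-51496613, plus strand) spans both Lilrb4a and its activating relative Lilr4b. It is reported as a locus and left out of the counts of members, since which exons were counted cannot be told. The annotation that the authors counted on was not at hand. This row may be the Lilrb4 gene there, which was not checked. This row was far higher than the receptor genes. With IgE alone it stood at 717 and 1128 CPM in the PEP+/+ samples and 668 and 905 CPM in the PEP-/- samples. With antigen it stood at 1816 and 2838 CPM in the PEP+/+ samples and 1439 and 2873 CPM in the PEP-/- samples. No activated sample overlapped the sensitized ones, and the rise was 1.40 (SE 0.27, adjusted p = 0.00398). This rise lay above that of Cd244 (1.17) and below that of Cd33 (2.14).

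After IgE DEX the locus row stood at 977 and 1183 CPM in the PEP+/+ samples and 754 and 1016 CPM in the PEP-/- samples. With both agents it stood at 2081 and 2301 CPM in the PEP+/+ samples and 1634 and 2420 CPM in the PEP-/- samples. Under DEX the rise with DNP was 1.11 (SE 0.26, adjusted p = 0.0191). That call was lost without the numbered PEP+/+, the lettered PEP+/+ or the numbered PEP-/- IgE DEX sample or the lettered PEP-/- IgE DNP DEX sample (0.97 to 1.18, adjusted p 0.0516 to 0.0763). DEX moved the row by 0.20 (SE 0.26) in sensitized and -0.09 (SE 0.26) in activated cells, and neither was called.

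Cd300a (chr11:114890041-114904654, plus strand) encodes a receptor for phospholipids exposed on dying cells and was not called by edgeR in any treatment comparison without the set term. With IgE alone it stood at 318 and 286 CPM in the PEP+/+ samples and 367 and 359.6 CPM in the PEP-/- samples. In activated BMMCs it stood at 294 and 301 CPM in the PEP+/+ samples and 348 and 369 CPM in the PEP-/- samples. The groups overlapped and DNP changed it by -0.02 (SE 0.10, adjusted p = 0.948). After IgE DEX it stood at 291 and 292 CPM in the PEP+/+ samples and 451 and 400.4 CPM in the PEP-/- samples. With both agents it stood at 382 and 354 CPM in the PEP+/+ samples and 423 and 428 CPM in the PEP-/- samples. In activated cells DEX changed it by 0.28 (SE 0.10, adjusted p = 0.126), a rise in 4 of 4 pairs that passed with the set term (0.28, SE 0.08, adjusted p = 0.0216) and by DESeq2 (adjusted p = 0.00674). In sensitized cells DEX changed it by 0.09 (SE 0.10, adjusted p = 0.785), and DNP under DEX by 0.17 (SE 0.10, adjusted p = 0.358).

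Cd300lf (chr11:115116214-115133992, minus strand), a second CD300 receptor with inhibitory motifs, differed mainly between the sets, being 0.54 higher in the lettered one (log2, SE 0.06, adjusted p = 4.33e-06). It ranged from 101.3 to 150.2 CPM after IgE, 76.5 to 130.0 after IgE DNP, 95.0 to 140.9 after IgE DEX and 81.1 to 118.6 after IgE DNP DEX. Activated samples were lower than their sensitized partners in 4 of 4 pairs without DEX and 4 of 4 with it. The changes of -0.26 (SE 0.25, adjusted p = 0.605) and -0.27 (SE 0.25, adjusted p = 0.563) passed only with the set term (-0.27, SE 0.09, adjusted p = 0.0230, and -0.28, SE 0.09, adjusted p = 0.0201). DEX changed it by -0.06 (SE 0.25) and -0.07 (SE 0.25), and neither was called in either model. Rab37 overlaps Cd300lf on the other strand at 195.0 to 456 CPM. Whether the counting used strand was not given in the sources used here, and Rab37 changed by -0.35 (SE 0.13, adjusted p = 0.0981) with DNP and fell by 0.63 (SE 0.13, adjusted p = 0.00971) with DEX in sensitized cells.

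No member was called by edgeR between PEP-/- and PEP+/+ cells (0 of 8), where 1.59% of all genes were called. At an unadjusted p under 0.05 there were 3 of 8 members, beside 1884 of all 13305 genes. DESeq2 called 1 of 8 members, beside 697 of 12273 genes. The members' median difference was 0.22 and that of all genes 0.02. With the set term 3 members were higher in PEP-/- cells, Cd300a, Cd84 and Milr1, with 17.4% of all genes called.

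Cd300a was 0.32 higher in PEP-/- cells (SE 0.07, adjusted p = 0.0555), and 0.32 with the set term (SE 0.06, adjusted p = 0.00223). It was higher in 8 of 8 pairs of the same set and treatment, by 0.15 to 0.63. Whether the 4 treatments of a set and genotype shared a culture was not given, so the 8 pairs may not be independent. If they did, genotype and culture cannot be told apart within a set. The means in PEP+/+ and PEP-/- were 301.6 and 363 CPM after IgE, 297.6 and 358 CPM after IgE DNP, 292 and 426 CPM after IgE DEX, and 368 and 425 CPM after IgE DNP DEX. Of its 4 treatments, the widest gap was after IgE DEX, where the 2 PEP+/+ samples differed by under 1 CPM. It was called by DESeq2 (0.33, adjusted p = 1.29e-06) and among genes with at least 10 counts in every sample (0.33, adjusted p = 0.0316), but not without a filter on low counts.

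Cd84 was 0.45 higher in PEP-/- cells (SE 0.18, adjusted p = 0.259), and with the set term 0.42 (SE 0.07, adjusted p = 0.00153), by 0.12 to 0.61 in 8 of 8 pairs. Its mean difference was 0.58 within the numbered and 0.26 within the lettered set. Milr1 was 0.44 higher (SE 0.20, adjusted p = 0.352), and with the set term 0.44 (SE 0.08, adjusted p = 0.00254), by 0.21 to 0.69 in 8 of 8 pairs, with 0.44 within each set. The limit on the pairs given for Cd300a holds for Cd84 and Milr1 too. The genotype ranges of all 3 genes overlapped over the treatments. Pirb (0.24, SE 0.24), Cd33 (0.19, SE 0.19), Cd244 (0.16, SE 0.15), Cd300lf (-0.05, SE 0.18), Cd200r1 (-0.10, SE 0.08) and the locus row (-0.19, SE 0.18) were not called in either model.

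Over the 8 conditions, Cd33 had the widest spread of means, 5.23 times between PEP-/- IgE DNP and PEP+/+ IgE, and Cd300lf the narrowest, 1.27 times between PEP+/+ IgE and PEP+/+ IgE DNP DEX. Ordered by mean, Cd300a and Cd200r1 each had 3 of 7 neighbouring steps, and Cd33 had 2, in which both samples of the higher condition lay above both of the lower. For Pirb, Milr1, Cd84 and Cd300lf no neighbouring conditions were separated in this way. Milr1 spanned 3.22 times, Pirb 2.37 times, Cd200r1 2.14 times, Cd84 2.08 times and Cd300a 1.46 times.

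**Figure D3:**
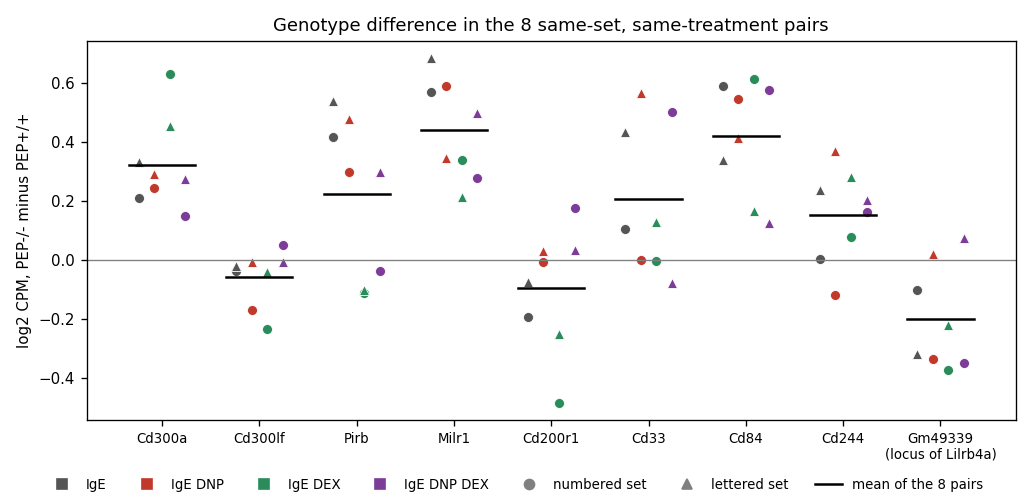
Log2 CPM of the PEP-/- sample minus that of the PEP+/+ sample of the same set and treatment (y axis), 8 pairs for each gene. Colours mark treatments, symbols the sets and black lines the mean of the pairs. All 8 pairs lie above 0 for Cd300a, Cd84 and Milr1, between 0.12 and 0.69. The pairs come from the numbered and lettered sets and may not be independent.

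Genotype by DNP was tested in cells without DEX, and genotype by DEX as a mean over sensitized and activated cells. In these tests no dependence on genotype was called for any receptor gene. Whether the DNP change under DEX, or the DEX change in either setting alone, depended on genotype was not tested. For genotype by DNP, edgeR called 0 of 8 members and 0% of all genes (0% with the set term too; 0 members at an unadjusted p under 0.05, 0 by DESeq2), and the members' differences ran from -0.13 for Milr1 to 0.15 for Cd200r1 with SE from 0.21 to 0.68. For genotype by DEX the values were 0 of 8 and 0% of all genes (0% with the set term; 0 at an unadjusted p under 0.05, 0 by DESeq2), from -0.43 for Pirb to 0.11 for Cd300a with SE from 0.15 to 0.48. Over all genes 30 and 113 had an unadjusted p under 0.05. For DNP by DEX, 0 of 8 members were called (0 at an unadjusted p under 0.05, 0 by DESeq2) beside 0.331% of all genes. With the set term 0 members were called as well, beside 1.57% of all genes. The counts at an unadjusted p and the SE above come from the model without that term. With it the largest member value was -0.43 (SE 0.15) for Pirb in genotype by DEX. In DNP by DEX it was -0.68 (SE 0.23, adjusted p = 0.206) for Cd33.

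Genes that carry the signal of these receptors were called mostly for DEX. Of 14 tested genes for inhibitory signal transducers, 3 rose and 1 fell with DEX in sensitized cells, and 3 rose and 1 fell in activated cells (medians 0.06 and 0.10, beside 0.00 and -0.01 for all genes). Lyn, the Src kinase that phosphorylates the inhibitory motifs, was among the risers (1.01, SE 0.10, adjusted p = 9.72e-05, and 0.98, SE 0.10, adjusted p = 0.000151). Fgr had 0 counts in all 8 samples without DEX and 14 to 154 counts in the 8 samples with it.

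Ptpn6, which encodes the phosphatase SHP-1, fell with DEX, from 252.7 to 294 CPM after IgE to 187 to 210.0 CPM after IgE DEX (-0.45, SE 0.10, adjusted p = 0.0184), and in activated cells (-0.40, SE 0.10, adjusted p = 0.0306). With DNP 1 transducer rose, Lyn (0.41, SE 0.10, adjusted p = 0.0190), and 1 fell, the adaptor Dok1 (-0.49, SE 0.13, adjusted p = 0.0293). The median was -0.06, and 16.7% of all genes were called. Under DEX 1 rose with DNP, Lyn (0.37, SE 0.10, adjusted p = 0.0380), with a median of -0.08 and 12.6% of all genes called. None of the 14 was called between genotypes or in an interaction.

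Of 12 tested genes for activating counterparts and ligands, 4 rose with DNP (median 0.16) and 3 rose with DNP under DEX (median 0.35). With DEX 2 fell in sensitized and in activated cells (medians -0.17 and -0.16). Of all genes, 16.7%, 12.6%, 9.37% and 10.7% were called in these 4 comparisons. The falling pair was Cd200r3 and Cd200r4, activating relatives of Cd200r1, by 1.12 (SE 0.13, adjusted p = 0.000188) and 1.06 (SE 0.13, adjusted p = 0.000354) in sensitized cells. Cd200r4 also rose with DNP under DEX (0.86, SE 0.13, adjusted p = 0.00132). Cd300lb, an activating CD300 receptor that pairs with DAP12, rose with DNP from 250.4 to 384 CPM to 476 to 568 CPM (0.71, SE 0.13, adjusted p = 0.00387), while both inhibitory CD300 members were not called in that model. Pira2 rose with DNP as well (0.64, SE 0.13, adjusted p = 0.00474). Reads of these families may be split between near-identical copies.

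**Figure D4:**
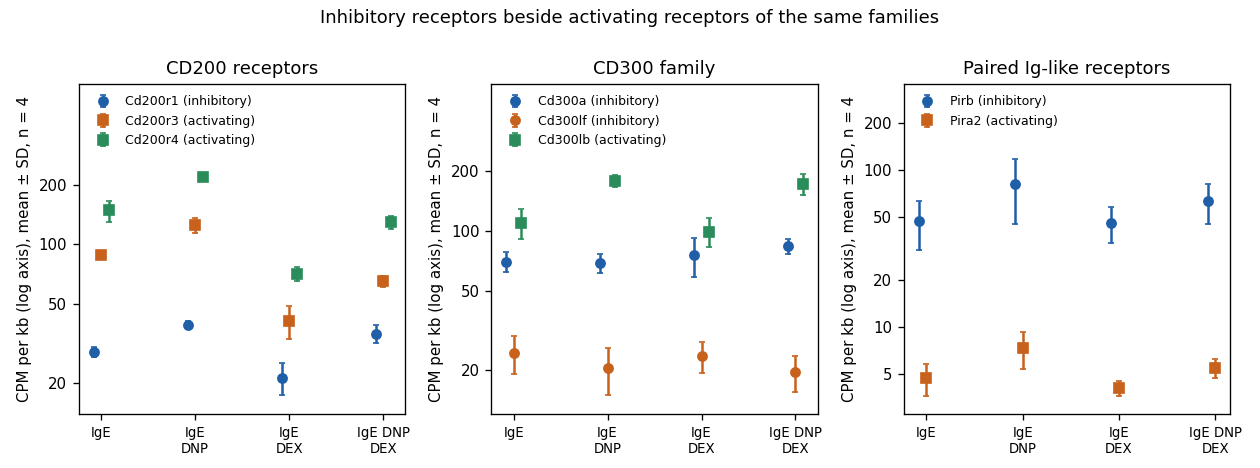
Mean CPM per kb of exon ± SD of the 4 samples of each treatment (y axis, log scale) for inhibitory members (circles) and activating relatives (squares) of 3 families. Cd200r3 and Cd200r4 stood above Cd200r1 in each treatment, and both fell with DEX and rose with DNP. Cd300lb rose with DNP from 110.1 to 179 CPM per kb, and Pira2 stayed between 4.08 and 7.41 CPM per kb.

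Of 24 other receptors listed as inhibitory, 13 passed the filter. Whether they inhibit these cells was not measured either. With DNP 2 rose: Havcr2, which encodes TIM-3, from 160.0 to 237 CPM to 1174 to 1582 CPM (2.85, SE 0.23, adjusted p = 9.06e-06), and Siglecf, a Siglec like Cd33, from 0.174 to 2.09 CPM to 2.81 to 7.79 CPM (2.18, SE 0.53, adjusted p = 0.0153). Siglecf was low, with 2 to 25 counts per sample after IgE and 25 to 102 after IgE DNP. The median of the list was 0.32, and 16.7% of all genes were called. No gene of this list or of the activating counterparts was called between genotypes or in an interaction. With DEX in sensitized cells 1 rose, Havcr2 (0.82, SE 0.21, adjusted p = 0.0313), and 3 fell (median -0.37, 9.37% of all genes called). Pilra fell by 2.47 (SE 0.44, adjusted p = 0.00429), from 0.607 to 1.55 CPM to 0.130 to 0.259 CPM. It was near the floor, with 7 to 29 counts per sample after IgE and 2 to 5 after IgE DEX. Lair1, a collagen receptor, fell by 1.24 (SE 0.21, adjusted p = 0.00331). In activated cells the same 3 fell with DEX (Pilra, Lair1 and Sirpa, median -0.85, 10.7% of all genes called). Under DEX 1 rose with DNP, Havcr2 (2.20, SE 0.22, adjusted p = 9.16e-05), with a median of 0.10 and 12.6% of all genes called. The macrophage and monocyte total given above had a lower range after DEX too, while none of the 4 tested markers was called with DEX. The part of these cells in the falls of Pilra, Lair1 and Sirpa was not tested.

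Among 8649 genes with a mean log2 CPM of at least 3, those whose 8 condition means were most like a member's are given as a description, all points sharing the same 16 libraries. Cd33 was most like Map3k14 (Pearson r = 0.998), Stk40 and B4galt5 (both 0.997), and Cd244 most like Arhgap23 (0.997), Lasp1 and Slco2b1 (both 0.996). Cd200r1 was most like Ccnc (0.993), Tec (0.984) and Lactb (0.981), and Milr1 most like Tspoap1 (0.990), Gss and Acss2 (both 0.985). Cd84 was most like Cd68 (0.986), Herpud2 (0.958) and Mgea5 (0.956), Cd300lf like Rgs19 (0.981), Slc35e1 and Ikzf4 (both 0.979), Pirb like Prkx (0.968), Anxa7 (0.967) and 4930503L19Rik (0.964), and Cd300a like Hist1h2bc (0.942), Blmh (0.937) and Rpl10-ps3 (0.935). Among the pairs of members, r was highest for Pirb with Cd33 (0.93) and Cd33 with Cd244 (0.91) and lowest for Cd300lf with Cd33 (-0.88).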

How the data were processed

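Total RNA of BMMCs was made into stranded mRNA libraries and sequenced. Per the labels and the methods of the study, the authors aligned reads with TopHat2 to GRCm38 and counted them on Ensembl genes with HTSeq. They deposited raw counts per gene for each sample, with 5 rows of reads on no gene, which were left out of library sizes and tests (29.1% to 49.6% of a sample's reads). HTSeq's strand setting was not given in the sources used here, and reads that aligned to several places were not counted. Gene names and exon lengths came from GENCODE M21 on GRCm38, which held 37607 of the 39179 identifiers (95.99%). Cd244 was matched as Cd244a.

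Counts were scaled with TMM, filtered with filterByExpr (minimum count 10) and fitted over all 16 samples by the quasi-likelihood method of edgeR 4.0.16 (R 4.3.3; glmQLFit, glmQLFTest) with 1 mean per condition and 8 residual degrees of freedom. Adjustment was by Benjamini-Hochberg over 13305 genes, at 0.05. Contrasts of DNP or DEX average both genotypes, and the genotype contrast averages the 4 treatments. Genotype by DNP used the cells without DEX, and genotype by DEX averaged sensitized and activated cells. The study names DESeq2 with no design, so DESeq2 1.42.0 was an alternative. Further alternatives used the size factors of DESeq2 with edgeR, dropped the low-count filter, kept genes with 10 or more counts throughout, fitted the compared conditions alone, left out each sample, or added the sample set as a replicate block. The scripts were also run on counts simulated for the DNP comparison. That simulation took its means and spread from the counts of these samples and held no difference between the sets.

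The pairing comes from the labels, which number 1 sample of each condition and letter the other, and do not say that a set was prepared together. Deviations of same-set samples from their condition means correlated between conditions in all 28 pairs of conditions (r from 0.453 to 0.799, median 0.718), so the sets were taken to pair the samples, and blocked values stand beside results whose call they change. The set term was called for 63.6% of genes. The study calls the 2 samples of a condition biological replicates. Whether they came from separate mice or cultures was not given in the sources used here, and p-values measure the spread between these samples.

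The members and lists were chosen with earlier results of these data known. The text names all members in each comparison, up to 2 called genes per list and direction with the largest change, the 3 genes most like each member, and Ptpn22. Cd48, Cd200, Rab37, Ly9 and Polg2 are named as ligands or overlapping genes. Lyn (for DEX), Sirpa, Ccr2 and Cd200r3 (in the plot of families) were named beside that rule after their values were seen. So were the other genes of that plot. Some genes of the lists are not reported here.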

Additional observations from a re-analysis of the deposited data

How the results depend on the processing

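Adding the sample set as a replicate block to pair the samples raised the number of members called from 3 to 6 for DNP, from 2 to 5 for DEX in activated BMMCs, from 3 to 6 for DNP under DEX and from 0 to 3 for genotype. It changed no call other than those given in the report, and lost none. Over all genes it raised the calls from 2216 to 5042 for DNP, 1247 to 3548 and 1418 to 4429 for DEX in sensitized and activated BMMCs, 1678 to 5007 for DNP under DEX, 44 to 209 for DNP by DEX and 212 to 2310 for genotype. Fitting the compared conditions alone, with fewer samples behind the spread, called 1 member each for DEX in sensitized and activated BMMCs, lost Milr1 (adjusted p = 0.0674) and Cd200r1 (0.0796) in the former and Cd244 (0.135) in the latter by edgeR, and gave 805 genes for DEX in activated BMMCs and 953 for DNP under DEX. There Cd244 gained a call for DEX in sensitized BMMCs (0.0290), and the Pirb change with DEX in sensitized BMMCs was 0.01. This alternative was not run for the genotype difference, genotype by DEX or DNP by DEX, which use all conditions. DESeq2 called 1 member for genotype, Cd300a, as did edgeR with 10 or more counts in every sample. DESeq2 also gained Cd244 for DEX in sensitized (adjusted p = 0.0339) and Cd300a for DEX in activated BMMCs (0.00674), and called 101 genes for DNP by DEX and 697 for genotype. Without the filter on low counts Cd200r1 lost its calls for DNP (adjusted p = 0.172 by edgeR) and for DEX in sensitized BMMCs (0.284). Calls were gained there for Pirb with DNP (0.00227), Cd244 with DEX in sensitized (0.0176) and Cd33 with DEX in activated BMMCs (0.00638), and 107 genes were called for DNP by DEX, 472 for genotype, 3 for genotype by DNP and 18 for genotype by DEX. The cause of these changes was not tested.

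With each of the 16 samples left out in turn, the members called ranged from 2 to 3 for DNP and from 0 to 2 for DEX in either setting, and were 3 each time for DNP under DEX. Over all genes the same fits called 1390 to 2251 for DNP, 845 to 1269 and 852 to 1317 for DEX in sensitized and activated BMMCs, 927 to 1604 for DNP under DEX, 12 to 27 for DNP by DEX, 57 to 203 for genotype and 0 for both genotype interactions, of 13754 to 13807 tested. Where 1 sample was left alone in its condition, it was assumed to vary like the others. Log2 changes that were not called crossed 0 in 106 of 1152 values, 76 of them in the interactions. Outside the interactions, for DNP, Cd300a ran from -0.06 to 0.02 and Milr1 from -0.01 to 0.40. For DEX in sensitized BMMCs, Cd300lf ran from -0.20 to 0.09, Pirb from -0.20 to 0.19, Cd33 from -0.28 to 0.23 and Cd84 from -0.14 to 0.29. For DEX in activated BMMCs, Cd300lf ran from -0.21 to 0.16 and the Lilrb4a locus row from -0.27 to 0.22, and for genotype Cd300lf ran from -0.16 to 0.03. No call turned direction under any alternative run.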
